A study of Mus musculus with 23 samples.

Results

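The 10 genes described here encode the enzymes of the pentose phosphate pathway, *G6pdx*, *Pgls*, *Pgd*, *Rpia*, *Rpe*, *Tkt* and *Taldo1*, and 3 enzymes that oxidise malate or isocitrate, *Me1*, *Idh1* and *Me2*. They are 10 of the 56941 genes listed in the count files and 10 of the 33025 with a count in any library. These enzymes were selected on the contrast of CRE with RFP in these same libraries, with its results known, so their difference between CRE and RFP libraries is given below as a description without a test.

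All libraries came from primary hippocampal neurons of homozygous Nedd8cKO mice (made in FVB/N zygotes, with C57BL/6N given as the background in the reporting summary of the study), dissected on postnatal day 0, with pups of unchecked sex. In this line loxP sites flank exons 2 and 3 of *Nedd8*, which encodes a ubiquitin-like protein that is conjugated to cullins and other substrates. The neurons were infected on day 1 in vitro with lentivirus that expressed RFP alone (RFP libraries) or CRE recombinase with RFP (CRE libraries), both under the Synapsin1 promoter, which is active in neurons, so that glia in the dish are not an intended target of the recombinase. RNA was extracted after 12 days in culture according to the sample labels, and 1 day later according to the methods of the study. There were 12 CRE and 11 RFP libraries in 3 numbered sets of 3 or 4 libraries for each virus. The sets are called cultures here, although neither the labels nor the methods say in words that the number marks a culture.

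In this pathway glucose 6-phosphate leaves glycolysis and is oxidised to a pentose phosphate while NADP+ is reduced to NADPH, and another, reversible branch returns pentose phosphates to glycolytic intermediates or supplies ribose for nucleotides. NADPH is the electron donor of glutathione and thioredoxin reductases and of fatty acid and cholesterol synthesis. Neurons are known to send part of their glucose through this route to keep glutathione reduced. Several of its enzymes, among them those encoded by *G6pdx*, *Pgd*, *Taldo1*, *Tkt* and *Me1*, are textbook targets of the transcription factor NRF2, which is degraded through the KEAP1 and CUL3 ubiquitin ligase, and cullins need NEDD8 for full activity.

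*Taldo1*, *G6pdx* and *Pgd* were the members with the highest fold of CRE over RFP, and their promoters are shown for that reason, as 300 bases from 250 before to 50 after the Ensembl canonical transcription start in GRCm39, 5′ to 3′ on the strand of the gene. Capitals mark a CCAAT box (CCAAT, or ATTGG where it lies on the opposite strand) and a GC box (GGGCGG). The windows were chr7:140971826-140972125 (plus) for *Taldo1*, chr4:149251129-149251428 (minus) for *Pgd* and chrX:73472770-73473069 (minus) for *G6pdx*.
Taldo1: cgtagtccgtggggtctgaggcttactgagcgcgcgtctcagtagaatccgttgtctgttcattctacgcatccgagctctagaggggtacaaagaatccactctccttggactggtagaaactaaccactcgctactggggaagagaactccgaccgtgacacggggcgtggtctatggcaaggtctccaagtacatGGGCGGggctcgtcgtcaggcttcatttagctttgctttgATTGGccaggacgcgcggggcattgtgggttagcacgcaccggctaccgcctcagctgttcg
Pgd: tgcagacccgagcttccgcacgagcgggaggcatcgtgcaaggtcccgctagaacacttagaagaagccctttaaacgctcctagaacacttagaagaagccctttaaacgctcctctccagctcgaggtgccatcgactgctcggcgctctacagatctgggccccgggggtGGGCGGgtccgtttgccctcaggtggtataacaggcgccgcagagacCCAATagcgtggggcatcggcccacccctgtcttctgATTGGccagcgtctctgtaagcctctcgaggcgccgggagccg
G6pdx: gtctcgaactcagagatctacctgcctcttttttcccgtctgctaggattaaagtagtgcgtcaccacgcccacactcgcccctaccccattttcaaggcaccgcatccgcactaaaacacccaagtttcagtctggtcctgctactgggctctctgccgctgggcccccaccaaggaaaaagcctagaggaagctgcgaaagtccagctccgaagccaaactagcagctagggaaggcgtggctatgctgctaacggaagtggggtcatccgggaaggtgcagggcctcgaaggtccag
The 3 windows held no match in common, since *G6pdx* had none of these motifs. Searched on both strands, a CCAAT box was in the windows of 5 of the 10 members and in 39.9% of 21757 promoters of the same length, and a GC box was in 7 of the 10 members and in 42.5% of all promoters. The core of the antioxidant response element bound by NRF2 with its MAF partners, searched as TGACNNNGC, was in none of the 10 windows and in 12.5% of all promoters. A match is a string of letters and not a measured binding site, and the absence of the letters from 300 bases says nothing of elements elsewhere.

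Total counts assigned to genes ran from 7635735 to 17112815 in the 11 RFP libraries. They ran from 8923280 to 13345552 in the 10 CRE libraries that were compared with them. The study's methods removed 2 CRE libraries, number 3 of culture 1 (CRE1-3) and number 3 of culture 3 (CRE3-3), which held 7430401 and 1546796 counts, and these are given separately below. RFP library 4 of culture 2 (RFP2-4) and RFP library 2 of culture 3 (RFP3-2) also stood apart, the former in the relation of counts to GC content and the latter in its share of *Rn18s-rs5* reads. *Nedd8* itself, the check of the labels, was at 60.6 ± 10.0 CPM (counts per 1000000 counts of the library after TMM scaling; SD, n = 11) in RFP and 11.4 ± 3.68 (n = 10) in CRE libraries, and no CRE library reached the lowest RFP library. Neuron markers were detected in both groups (summed CPM of 7 markers 4757 to 6243 in RFP and 2776 to 4662 in CRE), as were astrocyte markers (7 genes, 2602 to 6207 and 1327 to 4303) and oligodendrocyte lineage markers (7 genes, 581 to 1866 and 424 to 1006). Microglial markers summed to at most 7.70 CPM, with *Cx3cr1* at 0 in every CRE library compared. In the edgeR quasi-likelihood fit 6 of 7 neuron markers, 5 of 7 oligodendrocyte lineage markers, 3 of 7 astrocyte markers and 6 of 6 markers of dividing cells were lower in CRE at an adjusted p below 0.05. The astrocyte marker *Gja1* (0.76 ± 0.23, adjusted p = 0.0123), the microglial marker *Tmem119* (3.41 ± 0.64, adjusted p = 0.0001) and the mesenchymal marker *Pdgfrb* (0.77 ± 0.24, adjusted p = 0.0118) were higher in CRE in the same fit. *Tmem119* was near the floor, at means of 0.175 CPM in RFP and 1.93 CPM in CRE libraries. Only 2 of 7 microglial markers could be tested, and the other did not pass. The 7 mesenchymal markers summed to 15.4 to 143 CPM in RFP and 14.3 to 380 CPM in CRE libraries. The part of these markers in the values below was not tested. In these bulk cultures fewer cells of a type and less RNA per cell cannot be told apart.

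All 10 members passed the filter on low counts. Over the 14482 genes tested, 37.9% differed between CRE and RFP at an adjusted p below 0.05 (20.2% higher and 17.8% lower in CRE). In the same fit 6 of the 10 members were below that threshold, 4 of them higher and 2 lower in CRE, and nothing is read from these counts because the members were chosen with this contrast known. The median log2 fold change of the 10 members was 0.14, against 0.02 for all genes tested, whose quartiles were -0.28 and 0.35.

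**Figure D1:**
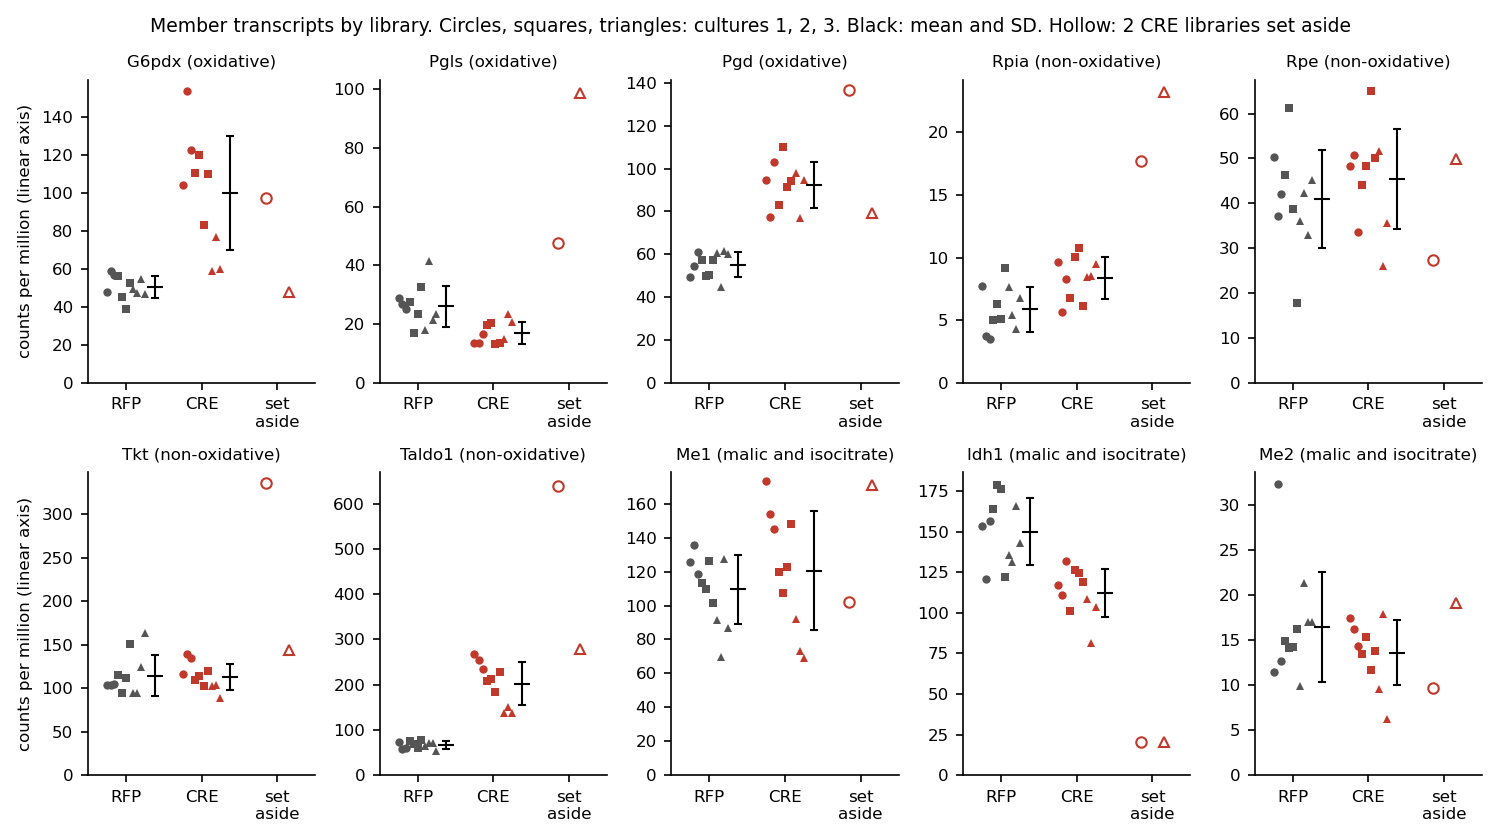
Level in CPM (y axis, linear from 0) of the 10 members in each library, with 11 RFP libraries in grey, 10 CRE libraries in red and the 2 CRE libraries set aside as hollow symbols. Symbols give the culture and black bars the mean and SD, and the filled CRE points of *G6pdx*, *Pgd* and *Taldo1* all lie above the RFP points.

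The oxidative branch makes the NADPH. *G6pdx* (ENSMUSG00000031400, chrX:73449857-73472819, minus) encodes glucose-6-phosphate dehydrogenase, the enzyme of the first and rate-limiting step. Its level was lowest at 39.0, had a median of 49.4 and was highest at 58.7 CPM in RFP libraries. In CRE libraries the lowest, median and highest levels were 59.1, 107 and 154 CPM. The groups did not overlap, 0.352 CPM apart, and the lowest CRE values were those of culture 3. The CRE3-3 library, which was set aside, had 47.8 CPM and lay within the RFP range. On the log2 scale the difference was 0.99 ± 0.13 (SE), or 1.98-fold. An exon stretch of 526 bases is shared with *Ikbkg* on the opposite strand, whose own level did not pass the test (log2 fold change 0.19 ± 0.10, adjusted p = 0.134 with edgeR).

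*Pgls* (ENSMUSG00000031807, chr8:72044202-72053768, plus) encodes the lactonase of the following step. It had a lowest, median and highest level of 17.0, 25.1 and 41.5 CPM in RFP, and of 13.3, 15.8 and 23.5 CPM in CRE libraries. The groups overlapped, with 6 of 10 CRE libraries below every RFP library, and the highest RFP value was that of RFP3-2. The log2 difference was -0.61 ± 0.15 and came to -0.37 once each library's trend with GC content was removed and to -0.04 over all 23 libraries. *Pgls* had the highest GC content of the 10 members (65.8% of its transcript) and rested on 151 to 391 reads in a library. It also shares 935 exonic bases with *Niban3* on the same strand, so that the division of reads between them is uncertain. Per kilobase of transcript the count of *G6pdx* over that of *Pgls* had a median of 0.326 in RFP (0.183 to 0.438) and of 0.970 in CRE libraries (0.459 to 1.82), and it was 0.326 in CRE1-3 and 0.0772 in CRE3-3.

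*Pgd* (ENSMUSG00000028961, chr4:149233246-149251228, minus) encodes 6-phosphogluconate dehydrogenase, the other NADPH-producing enzyme of the branch. RFP libraries lay between 44.9 and 61.6 CPM around a median of 57.5, and CRE libraries between 76.8 and 110 CPM around a median of 94.6. A gap of 15.2 CPM separated the highest RFP from the lowest CRE library. The log2 difference was 0.74 ± 0.08 (1.67-fold), with the smallest standard error of the 10 members.

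The non-oxidative branch interconverts pentose phosphates. *Rpia* (ENSMUSG00000053604, chr6:70742704-70769216, minus) encodes the isomerase that makes ribose 5-phosphate, the sugar of nucleotides. It was read only 30 to 132 times in a library, and its lowest, median and highest levels were 3.48, 5.39 and 9.18 CPM in RFP and 5.63, 8.49 and 10.8 CPM in CRE libraries. The groups overlapped, with 4 of 10 CRE libraries above every RFP library. Its log2 difference was 0.52 ± 0.20. *Rpe* (ENSMUSG00000026005, chr1:66739945-66765663, plus), the epimerase gene, had medians of 42.2 CPM in RFP (17.7 to 61.3) and 48.3 CPM in CRE libraries (26.0 to 65.1). Its log2 difference of 0.15 ± 0.16 was smaller than the spread between libraries, and the lowest RFP value was that of RFP2-4. *Rpe* shares 2232 exonic bases with *Kansl1l* on the opposite strand.

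*Tkt* and *Taldo1* encode the transferases that link pentose phosphates to glycolysis, transketolase and transaldolase. *Tkt* (ENSMUSG00000021957, chr14:30270156-30299612, plus) was at 114 ± 23.3 CPM in RFP and at 113 ± 15.4 CPM in CRE libraries, a log2 difference of -0.02 ± 0.10. *Taldo1* (ENSMUSG00000025503, chr7:140972053-140982886, plus) had its lowest, median and highest levels at 52.3, 68.6 and 78.5 CPM in RFP, and at 137, 210 and 268 CPM in CRE libraries. Every CRE library was above every RFP library, the log2 difference was 1.60 ± 0.11 (3.04-fold), and it rested on 396 to 1006 reads in an RFP library and 1462 to 3535 in a CRE library. Both transferases were read in the same libraries, so their ratio does not depend on how libraries were scaled. Per kilobase of transcript the count of *Taldo1* over that of *Tkt* had a median of 1.47 in RFP (0.815 to 1.92) and of 4.65 in CRE libraries (3.42 to 5.90). In CRE1-3 and CRE3-3 the same ratio was 4.87 and 4.96. The ratio of *Pgd* to *G6pdx* overlapped between the groups (1.60 to 2.21 in RFP and 0.864 to 2.86 in CRE libraries), as did that of *Me1* to *Me2* (3.90 to 13.2 and 4.89 to 13.1). That of *Taldo1* to *Pgls* did not (1.28 to 3.01 in RFP and 4.76 to 14.7 in CRE libraries). It was 10.0 in CRE1-3 and 2.11 in CRE3-3, the latter within the RFP range.

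**Figure D2:**
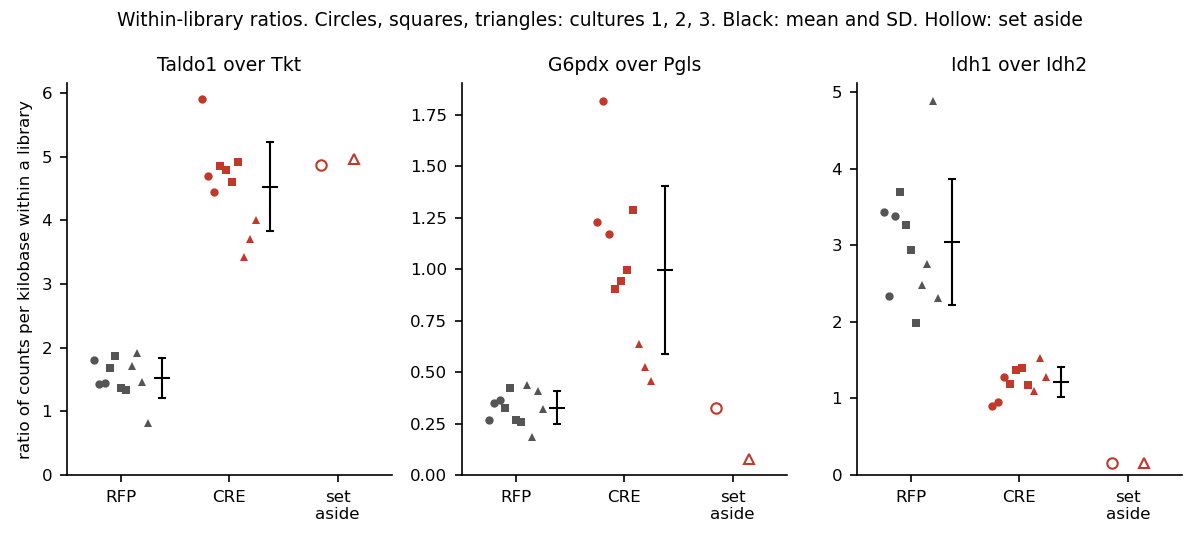
Ratio of counts per kilobase of transcript within each library (y axis, linear from 0) for *Taldo1* over *Tkt*, *G6pdx* over *Pgls* and *Idh1* over *Idh2*, with RFP libraries in grey, CRE libraries in red and the libraries set aside hollow. The RFP and filled CRE points do not overlap in these 3 panels, and black bars give the mean and SD. The overlapping ratios of *Pgd* to *G6pdx* and of *Me1* to *Me2* are not shown, nor is that of *Taldo1* to *Pgls*. The share of other gene pairs without overlap was not computed, so nothing is read from it here.

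The remaining members act on malate and isocitrate. *Idh1* (ENSMUSG00000025950, chr1:65196781-65225721, minus) encodes the NADP-dependent isocitrate dehydrogenase of the cytosol and peroxisomes. It was at 121, 154 and 179 CPM in the lowest, median and highest RFP libraries and at 81.4, 114 and 132 CPM in the CRE libraries. The groups overlapped, with 7 of 10 CRE libraries below every RFP library. The log2 difference was -0.42 ± 0.09 (a change of -25.0%). *Me1* (ENSMUSG00000032418, chr9:86462646-86578104, minus), the cytosolic malic enzyme that reduces NADP+, had levels of 69.5, 113 and 136 CPM in RFP and of 69.0, 121 and 173 CPM in CRE libraries. Its log2 difference was 0.13 ± 0.14, and CRE libraries lay on both sides of the RFP range, 4 above and 1 below it. *Me1* shares 2146 exonic bases with *Rwdd2a* on the opposite strand, which was lower in CRE (-0.54 ± 0.18, adjusted p = 0.0174 with edgeR). Whether reads of *Rwdd2a* entered the count of *Me1* is not known. *Me2* (ENSMUSG00000024556, chromosome 18, minus) encodes the mitochondrial malic enzyme, which mainly reduces NAD+. With 75 to 429 reads in a library it stood at 16.5 ± 6.11 CPM (SD, n = 11) in RFP and 13.6 ± 3.62 CPM (n = 10) in CRE libraries, a log2 difference of -0.27 ± 0.19 that was within the spread between libraries. The medians were closer, at 14.85 CPM in RFP and 14.08 CPM in CRE libraries. The highest RFP value, 32.4 CPM, was that of RFP library 2 of culture 1.

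The libraries that stood apart moved some of these values and not others. Without all 4 of them the log2 differences of *Taldo1*, *G6pdx*, *Pgd* and *Idh1* were 1.62, 0.96, 0.70 and -0.48, and with all 23 libraries they were 1.88, 0.92, 0.78 and -0.62. *Pgls* went from -0.49 to -0.04 between these settings and *Tkt* from -0.02 to 0.23.

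Per kilobase of transcript, where levels of different genes can be set side by side, the order in RFP libraries ran from *Taldo1* (52.5 ± 6.65 CPM per kilobase, SD, n = 11) through *Idh1* (45.5 ± 6.27), *Tkt* (35.4 ± 7.21), *Pgls* (27.6 ± 7.31), *Me1* (26.3 ± 4.89), *Pgd* (16.1 ± 1.67), *Rpe* (8.74 ± 2.34), *G6pdx* (8.56 ± 1.01) and *Me2* (3.31 ± 1.23) to *Rpia* (3.21 ± 0.993). The ranges of neighbours in this order overlapped over libraries in every case but *G6pdx* and *Me2*. *Taldo1* was above *Idh1* in 7 of 11 RFP libraries, *Pgls* above *Me1* in 5, *Rpe* above *G6pdx* in 6 and *Me2* above *Rpia* in 6, so that these neighbours were not separated. *Me1* was above *Pgd* and *Pgd* above *Rpe* in all 11 libraries. In CRE libraries *Taldo1* stood at 159 ± 37.6 CPM per kilobase (n = 10), followed by *Tkt* (34.9 ± 4.77), *Idh1* (34.1 ± 4.49), *Me1* (28.9 ± 8.44), *Pgd* (26.9 ± 3.13), *Pgls* (18.0 ± 3.99) and *G6pdx* (16.9 ± 5.10). Of these neighbours *Tkt* and *Idh1*, *Idh1* and *Me1*, *Me1* and *Pgd*, and *Pgls* and *G6pdx* lay within their spread of each other. With the length of all annotated exons in place of the canonical transcript, *Pgls* moved from rank 4 to rank 7 and *G6pdx* from rank 8 to rank 5 in RFP libraries, while *Taldo1*, *Idh1*, *Pgd*, *Me2* and *Rpia* kept their ranks. In CRE libraries the same change moved *Tkt* from rank 2 to rank 6 and *G6pdx* from rank 7 to rank 4.

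**Figure D3:**
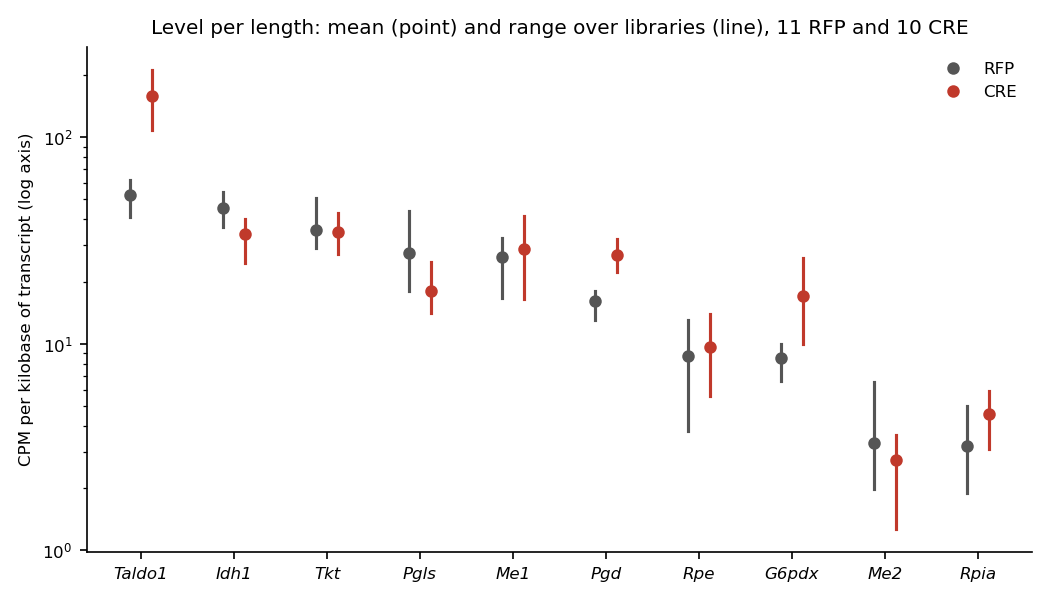
CPM per kilobase of canonical transcript (y axis, log scale) of each member, in the order of the RFP means, with grey for 11 RFP and red for 10 CRE libraries. Points are means and lines the range over libraries, and the CRE line of *Taldo1* lies entirely above its RFP line.

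The question of whether the difference between viruses was alike in the 3 cultures is separate from the contrast on which the members were chosen, and it was tested as an interaction of culture and virus. Each CRE set was compared with the RFP set of the same number. Neither the labels nor the methods say that these sets match, and they deviated together with correlations of only 0.124, 0.188 and 0.08. The values are thus differences between same-numbered sets and not matched effects within a culture. In cultures 1, 2 and 3 the log2 difference of *Taldo1* was 2.00 ± 0.15, 1.56 ± 0.13 and 1.14 ± 0.13 (SE). That of *G6pdx* was 1.22 ± 0.18, 1.13 ± 0.15 and 0.39 ± 0.16. *Me1* went from 0.31 ± 0.17 and 0.14 ± 0.15 to -0.27 ± 0.16, and *Tkt* from 0.33 ± 0.18 and -0.09 ± 0.15 to -0.29 ± 0.17. *Pgls* went the other way, from -0.89 ± 0.29 and -0.59 ± 0.25 to -0.39 ± 0.27, and *Rpia* was at 0.66 ± 0.39, 0.40 ± 0.34 and 0.55 ± 0.37. *Pgd* was at 0.74 ± 0.16, 0.82 ± 0.14 and 0.66 ± 0.15, with differences between cultures within the standard errors.

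No member passed the interaction test after adjustment over all genes, where 0.311% of 14482 genes did (45 genes). *Taldo1* had an unadjusted p of 0.0007 and an adjusted p of 0.112, and *G6pdx* had 0.00272 and 0.193 (edgeR quasi-likelihood F test). At an unadjusted p below 0.05 the test held 1436 genes, and these were the only members among them. With all 23 libraries 0 genes passed, and without the 4 libraries that stood apart 36 passed, again with no member. In CRE libraries the mean level of *G6pdx* was 127 ± 25.1 CPM in culture 1 (SD, n = 3), 106 ± 15.9 in culture 2 (n = 4) and 65.3 ± 10.1 in culture 3 (n = 3). *Nedd8* stood at a mean of 10.0, 9.55 and 15.3 CPM in the CRE libraries of cultures 1, 2 and 3, and its part in these values was not tested.

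Within RFP libraries, where no virus contrast enters, the 3 cultures could not be separated by any member. In an edgeR test between cultures 2.03% of 12114 genes passed (246 genes) and 0 of the 10 members did, at an unadjusted p below 0.05 for 1650 genes and 1 member. That member was *Me1*, with means of 127 ± 8.50 CPM in culture 1 (SD, n = 3), 113 ± 10.4 in culture 2 (n = 4) and 93.8 ± 24.3 in culture 3 (n = 4), an unadjusted p of 0.044 and an adjusted p of 0.347.

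**Figure D4:**
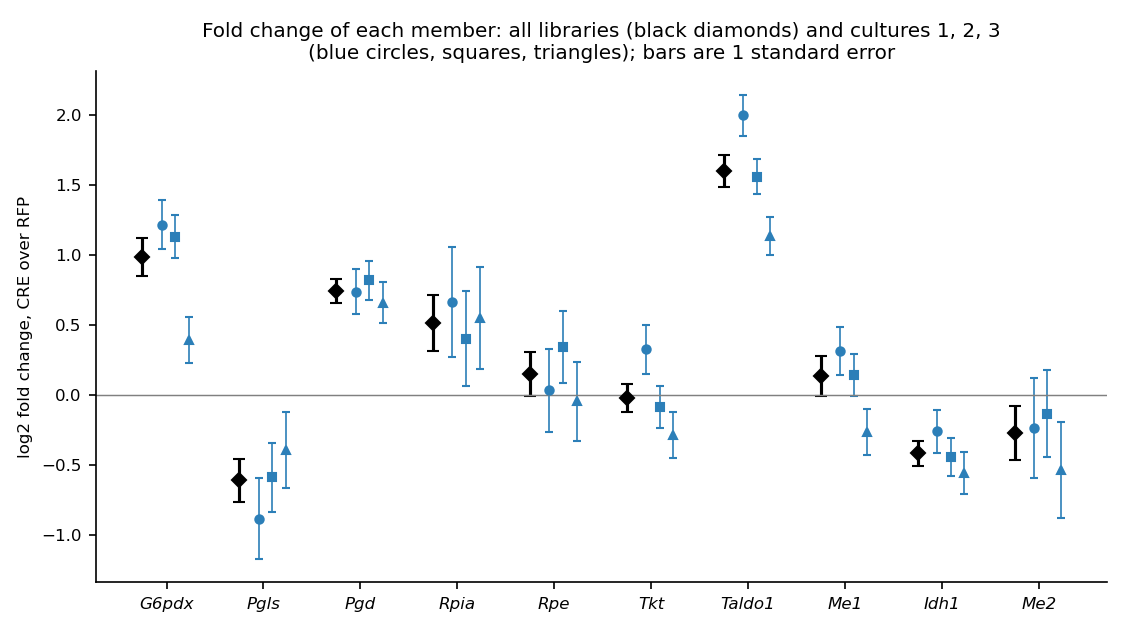
Log2 fold change of CRE over RFP (y axis) for each member over all libraries compared (black diamonds) and within cultures 1, 2 and 3 (blue circles, squares and triangles), with bars of 1 standard error. The blue points compare CRE and RFP sets of the same number, which were not taken to be paired. For *Taldo1* and *G6pdx* the value of culture 3, at 1.14 and 0.39, is below those of the other cultures.

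Deviations of libraries from their group mean were compared to find genes with a pattern most like that of a member, over 21 libraries and leaving out the members. For *G6pdx* these were *Hspb6* (Pearson's r 0.83), *Sqle* (0.80), *Chp1* (0.78), *Kcnj10* (0.77) and *Txnrd1* (0.77). For *Me1* they were *Glud1* (0.88), *Tmem19* (0.87), *Scd1* (0.86), *Scd2* (0.84) and *Gnao1* (0.84). Among the members, *G6pdx* had r of 0.77 with *Taldo1*, 0.64 with *Me1*, 0.53 with *Me2*, 0.49 with *Tkt*, 0.16 with *Idh1*, 0.08 with *Pgd*, 0.02 with *Rpe*, -0.10 with *Pgls* and -0.39 with *Rpia*. These are descriptions across libraries that share cultures and depth, and without the 4 libraries that stood apart the first list lay between 0.78 and 0.85 and the second between 0.83 and 0.86 over 19 libraries.

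Around the pathway, 86 other genes were listed, and of the 82 that could be tested 27 rose and 16 fell in CRE libraries at an adjusted p below 0.05 (edgeR, adjusted over all 14482 genes). These 43 are 52.4% of those tested, beside the 37.9% of all genes given above. The lists were drawn up with results of these libraries known and the count is a description. The fit takes each library as a replicate, and with counts summed per culture 30 of 85 tested genes of these lists were called. Genes named from each list are, by a fixed rule, at most the 3 largest rises and the 3 largest falls.

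Other enzymes that make NADPH or pentose phosphates were mixed. *Idh2*, the mitochondrial NADP-dependent isocitrate dehydrogenase, rose by 0.90 ± 0.13 on the log2 scale (adjusted p = 1.8e-06), from 27.1 ± 4.58 CPM (n = 11) to 50.5 ± 11.1 CPM (n = 10). Within libraries the count of *Idh1* per kilobase over that of *Idh2* had a median of 2.94 in RFP (1.98 to 4.89) and of 1.23 in CRE libraries (0.897 to 1.53). In the libraries set aside this ratio was far lower, at 0.1568 in CRE1-3 and 0.1575 in CRE3-3. *H6pd*, the glucose-6-phosphate dehydrogenase of the endoplasmic reticulum, rose by 0.58 ± 0.17 (adjusted p = 0.00742). *Aldh1l2*, the mitochondrial formyltetrahydrofolate dehydrogenase, rose by 0.73 ± 0.24 (adjusted p = 0.0182). *Aldh1l1*, its cytosolic counterpart and a marker of astrocytes, fell by 0.73 ± 0.20 (adjusted p = 0.00424), while the summed astrocyte markers had medians of 4648 CPM in RFP and 3873 CPM in CRE libraries, and their part in this was not tested. *Me3*, the mitochondrial NADP-dependent malic enzyme, was at 7.83 ± 2.82 and 8.08 ± 2.37 CPM and did not pass (0.05 ± 0.23, adjusted p = 0.895). Of 8 tested genes in this list 3 rose and 1 fell, and the call was lost in 5 of 17 alternative settings for *H6pd* and in 3 each for *Aldh1l1* and *Aldh1l2*. *Nnt*, which encodes the transhydrogenase of the inner mitochondrial membrane, was at a mean of 0.174 CPM in RFP and 0.969 CPM in CRE libraries and was below the filter, as were the transketolase-like genes *Tktl1* and *Tktl2*. *G6pd2*, a copy of *G6pdx* without introns, had 11 reads over all 23 libraries, against 19218 for *G6pdx*.

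Of 8 tested genes for ribose and other pentose metabolism 3 rose and none fell. They were *H6pd*, *Prps2* (0.82 ± 0.14, adjusted p = 1.85e-05), a phosphoribosyl pyrophosphate synthetase, and *Pgm2* (0.65 ± 0.24, adjusted p = 0.033), a phosphopentomutase whose call was lost in 10 of 17 alternative settings. *Prps2* stood at 34.3 ± 6.66 CPM in RFP and 60.5 ± 14.1 CPM in CRE libraries, with 9 of 10 CRE libraries above every RFP library.

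Genes of NAD and NADP synthesis showed 5 rises and no fall among 8 tested. *Nadk2*, the mitochondrial NAD kinase that makes NADP+ from NAD+, went from 31.7 ± 8.62 to 68.8 ± 21.4 CPM (1.12 ± 0.19, adjusted p = 2.89e-05), whereas the cytosolic kinase gene *Nadk* was at 79.3 ± 11.2 and 80.2 ± 9.58 CPM and did not pass the test (adjusted p = 0.909). *Nampt*, the rate-limiting enzyme of NAD salvage, rose by 0.77 ± 0.17 (adjusted p = 0.000673). *Nmnat3* rose by 1.33 ± 0.52 (adjusted p = 0.0426), but at means of 0.782 and 2.01 CPM, and its call was lost in 10 of 17 alternative settings.

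Glucose uptake and the first steps of its use held the widest change in *Slc2a1*, the glucose transporter GLUT1. It stood at 45.0 ± 11.5 CPM in RFP and 138 ± 35.6 CPM in CRE libraries, without overlap (1.61 ± 0.15, adjusted p = 3.04e-09). *Hk2*, a hexokinase, rose by 0.88 ± 0.30 (adjusted p = 0.0241). *Slc2a3*, the neuronal transporter GLUT3, fell by 0.22 ± 0.08 (adjusted p = 0.0439), and *Tigar*, a fructose bisphosphatase that turns glucose towards the pentose phosphate pathway, fell by 0.46 ± 0.16 (adjusted p = 0.0251). In all, 2 of 8 genes rose and 2 fell. The call was lost in 8 of 17 alternative settings for *Slc2a3*, in 6 for *Tigar* and in 4 for *Hk2*.

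In glycolysis 4 of 14 genes rose and 2 fell. *Ldhb*, a lactate dehydrogenase subunit, stood at 102 ± 19.6 CPM in RFP and 221 ± 40.2 CPM in CRE libraries, again without overlap (1.11 ± 0.11, adjusted p = 3.67e-09). *Pkm*, pyruvate kinase, rose by 0.55 ± 0.08 (adjusted p = 5.99e-06) and *Eno1*, an enolase, by 0.31 ± 0.10 (adjusted p = 0.0188). *Aldoc*, an aldolase of astrocytes and Purkinje cells, fell by 0.72 ± 0.26 (adjusted p = 0.0365), and *Pfkl*, a phosphofructokinase subunit, by 0.50 ± 0.18 (adjusted p = 0.0353). The call was lost in 7 of 17 alternative settings for *Pfkl*, in 6 for *Aldoc* and in 4 for *Eno1*.

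Citrate and malate metabolism, from which *Me1* and *Idh1* draw their substrates, held 3 rises and 2 falls among 11 genes. The mitochondrial citrate carrier gene *Slc25a1* went from 118 ± 17.5 to 77.9 ± 10.5 CPM (-0.60 ± 0.09, adjusted p = 5.99e-06). *Acly*, ATP citrate lyase, fell by 0.45 ± 0.09 (adjusted p = 0.000193). Of the NAD-dependent isocitrate dehydrogenase, *Idh3b* rose by 0.49 ± 0.08 (adjusted p = 3.23e-05) and *Idh3g* by 0.30 ± 0.10 (adjusted p = 0.0189), while *Idh3a* did not pass the test (-0.12 ± 0.09, adjusted p = 0.354). Citrate synthase, *Cs*, rose by 0.29 ± 0.08 (adjusted p = 0.00684). The calls of *Idh3g* and *Cs* were lost in 7 and 6 of 17 alternative settings.

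**Figure D5:**
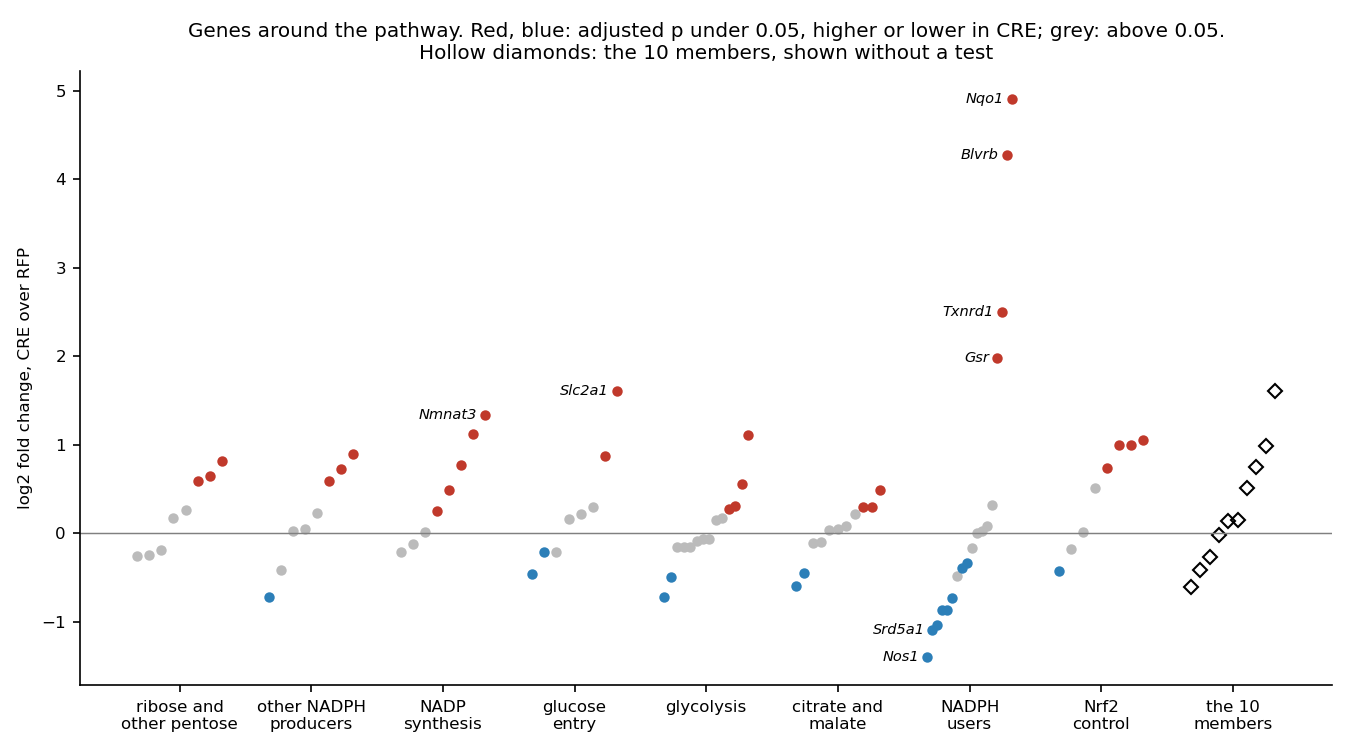
Log2 fold change of CRE over RFP (y axis) of the tested genes of 8 lists and of the 10 members, each point a gene, with red for genes that rose and blue for genes that fell at an adjusted p below 0.05 and grey for the others. Hollow diamonds are the members, shown without a test, and *Nqo1* at 4.91 and *Blvrb* at 4.27 lie above every other point.

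The enzymes that consume NADPH moved both ways, with 4 rises and 8 falls among 18 genes. *Nqo1*, a quinone reductase, stood at 2.75 ± 1.77 CPM in RFP and at 82.5 ± 43.3 CPM in CRE libraries (4.91 ± 0.40, adjusted p = 5.68e-09). *Blvrb*, biliverdin reductase B, went from 2.78 ± 1.48 to 52.8 ± 15.2 CPM (4.27 ± 0.28, adjusted p = 1.32e-11). *Txnrd1*, the cytosolic thioredoxin reductase, went from 120 ± 13.4 to 679 ± 191 CPM (2.50 ± 0.13, adjusted p = 3.6e-14). In each of these 3 genes the groups did not overlap, as was the case with CRE above RFP for 3.07% of all genes tested and for the members *G6pdx*, *Pgd* and *Taldo1*. Among the falls, *Nos1*, neuronal nitric oxide synthase, changed by -1.40 ± 0.20 (adjusted p = 3.15e-06) and the steroid reductase gene *Srd5a1* by -1.09 ± 0.20 (adjusted p = 7.22e-05). Neuron markers fell in the same libraries, as did those of dividing cells, and their part in these changes was not tested.

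The genes around NRF2 held 4 rises and 1 fall among 8. *Nfe2l2*, which encodes NRF2, went from 28.8 ± 10.1 to 60.1 ± 14.1 CPM (1.06 ± 0.17, adjusted p = 1.58e-05). The repressor gene *Bach1* rose by 1.00 ± 0.13 (adjusted p = 3.82e-07) and the partner gene *Mafk* by 0.99 ± 0.18 (adjusted p = 6.14e-05). *Rbx1*, the RING subunit of cullin ligases, fell by 0.42 ± 0.08 (adjusted p = 0.000184). *Keap1* (-0.17 ± 0.10, adjusted p = 0.179) and *Cul3* (0.01 ± 0.12, adjusted p = 0.967) did not pass the test. Of the 33 genes named from the 8 lists that passed the test, 18 kept their call in all 17 alternative settings, among them *Idh2*, *Nadk2*, *Slc2a1*, *Ldhb*, *Nqo1*, *Txnrd1* and *Nfe2l2*. The other 15 lost it in at least 1 setting, most often when culture 2 (12 genes) or culture 1 (11 genes) was left out.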

How the data were processed

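Primary hippocampal neurons were sequenced by the authors with Illumina Stranded mRNA Prep on a NovaSeq6000, and per the labels the reads were handled with bcl2fastq 2.20.0.422, STAR 2.7.8a and featureCounts 1.5.0-p1 on GRCm39. The authors deposited whole-number counts per Ensembl gene for each of 23 libraries, without normalization. The strand setting and the treatment of multiply mapping reads are not given in the sources used here, so reads of overlapping genes are uncertain.

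Gene names came from GENCODE M39, which named 56323 of 56941 identifiers. The main fit took the 21 libraries left by the study's methods (10 CRE, 11 RFP); a supplementary count table of the study leaves out another pair, which was an alternative. edgeR 4.0.16 in R 4.3.3 was used (filterByExpr, TMM, robust quasi-likelihood fit and F test), with p-values of all genes tested adjusted by Benjamini and Hochberg's method and a threshold of 0.05. CPM used TMM factors over all 23 libraries. The fit was tested on simulated data. No replicate pair agreed within counting noise (lowest chi-square per degree of freedom 10.4). Libraries that share a culture are not independent animals, but the main fit takes each library as a replicate. Its p-values thus set differences against the spread between libraries, not between animals or cultures, and can overstate the replication. Levels per length used the Ensembl canonical transcript, and promoters were read from the GRCm39 genome. DESeq2 1.42.0 and limma 3.58.1 were alternatives, and other values came from Python 3.11.15 with pandas 2.3.3, numpy 2.4.6 and matplotlib 3.10.9.

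The members and all gene lists were chosen with earlier results of these data known. The genes named are the 10 members, at most the 3 largest rises and 3 largest falls with an adjusted p below 0.05 in each list, related genes (*H6pd*, *Idh2*, *Me3*, *Tktl1*, *Tktl2*), the 5 genes closest to *G6pdx* and to *Me1* over libraries, and *Nedd8*, with 1 gene taken by this rule left out of the text. *Nadk*, *Nnt*, *G6pd2*, *Ikbkg*, *Niban3*, *Kansl1l*, *Rwdd2a*, *Idh3a*, *Keap1*, *Cul3*, *Rn18s-rs5* and the markers *Cx3cr1*, *Gja1*, *Tmem119* and *Pdgfrb* were named after their values were seen. Of 17 alternatives in the fit, none was added later, and exon-union lengths for the order of levels were added after seeing the data.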

Additional observations from a re-analysis of the deposited data

Results flagged for a closer look

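The 2 CRE libraries that the study's methods removed entered the comparison over all 23 libraries, and CRE1-3 also that over the libraries of the study's count table, but neither entered the main comparison. Several members stood in these 2 libraries above the highest RFP library. In CRE1-3, with 7430401 counts, these were *Taldo1* at 640 CPM, *Tkt* at 336 CPM, *Pgd* at 137 CPM, *G6pdx* at 97.3 CPM, *Pgls* at 47.7 CPM and *Rpia* at 17.7 CPM. In CRE3-3, with 1546796 counts, they were *Taldo1* at 280 CPM, *Me1* at 171 CPM, *Pgls* at 98.9 CPM, *Pgd* at 79.1 CPM and *Rpia* at 23.2 CPM. *G6pdx* was at 47.8 CPM in CRE3-3, within the RFP range. *Idh1* was at 20.3 and 20.5 CPM in these libraries, below every other CRE and RFP library. Over 7940 genes the Spearman correlation of a library's deviation with GC content was 0.79 in CRE1-3 and 0.65 in CRE3-3, against -0.31 to 0.25 in 19 libraries. Its part in these values was not tested. No single CRE library among the 10 compared lay far enough from the others to be singled out for any member by Dixon's criterion, a criterion that chance meets in about 1 of 20 groups.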

How the results depend on the processing

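In 17 alternative settings the number of genes that differed between CRE and RFP ran from 3727 to 8044 around 5492. Without the filter on low counts 4723 genes in place of 2920 were higher in CRE, and with all 23 libraries 1692 in place of 2572 were lower. Scaling by library totals moved the median log2 fold change of all genes from 0.02 to 0.13. The members' median stayed between 0.04 and 0.24 around 0.14. *Taldo1* ranged from 1.41 to 1.88, *G6pdx* from 0.85 to 1.12, *Pgd* from 0.69 to 0.85, *Rpia* from 0.43 to 0.79, *Idh1* from -0.62 to -0.31, *Pgls* from -0.77 to -0.04 and *Me2* from -0.35 to -0.16. *Tkt* (-0.17 to 0.23) and *Me1* (-0.01 to 0.22) changed sign between settings. The listed genes called numbered 29 to 45 around 43. Calls kept in all 17 settings include *Acly*, *Bach1*, *Blvrb*, *Idh2*, *Idh3b*, *Ldhb*, *Mafk*, *Nadk2*, *Nampt*, *Nfe2l2*, *Nos1*, *Nqo1*, *Pkm*, *Rbx1*, *Slc2a1*, *Srd5a1* and *Txnrd1*. *Nmnat3* and *Pgm2* lost their call in 10 settings each (highest adjusted p 0.21 and 0.245), *Slc2a3* in 8 (0.419), *Idh3g* and *Pfkl* in 7 (0.44 and 0.491), *Aldoc*, *Cs* and *Tigar* in 6 (0.393, 0.255 and 0.0881), *H6pd* in 5 (0.176), *Eno1* and *Hk2* in 4 (0.286 and 0.192), *Aldh1l1* and *Aldh1l2* in 3 (0.341 and 0.155), and *Prps2* and *Slc25a1* with all 23 libraries only (0.0809 and 0.22). The cause was not tested.

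Culture and library numbers are shared by both groups, but same-numbered cultures deviated together with correlations of only 0.124, 0.188 and 0.08, so the numbers were not taken to pair the samples. With culture number as replicate block 5657 genes were called, with culture and library number as block 4756, and with sums per culture and the block 4298. With the block the log2 differences of *Taldo1* and *G6pdx* were 1.55 and 0.92. Low counts limit *Rpia*, *Me2* and *Pgls*, whose differences have standard errors of 0.20, 0.19 and 0.15.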
